A study of Mus musculus with 9 samples.

Results

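The late neutrophil granule and calprotectin genes described here are 10 mouse genes that myeloid cells switch on as they mature into neutrophils. They were given as a list of symbols, Camp, Ltf, Ngp, Lcn2, S100a8, S100a9, Cd177, Mmp8, Mmp9 and Chil3, and each was matched to 1 Ensembl gene of the count table, so that 10 of 21159 genes were described. All 10 passed the filter on low counts that left 11196 genes for testing.

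The study profiled marrow cells that carried floxed Runx2 alleles and a tamoxifen-inducible Cre (Runx2fl/fl, CreErt2tg/+), and this genotype was shared by every group, controls included. Runx2ko cells had been transformed with a retrovirus for KMT2A-MLLT1-eGFP, a leukaemia fusion protein also known as MLL-ENL, and were then exposed for 24 hours to 4-hydroxytamoxifen (4-OHT, at 400 nM) to delete Runx2. Runx2wt cells were transformed in the same way and had no 4-OHT, with ethanol named as their treatment in the labels. BM progenitor samples were untreated lineage-depleted marrow cells taken before the first replating. Each group had 3 libraries, and the labels call all of them independent biological replicates. The Runx2ko and Runx2wt libraries shared transformation, replating rounds at intervals of 7 days and later suspension culture, so these cannot be told apart from one another in a comparison with BM progenitors. The labels do not settle whether the BM progenitor cells already carried the fusion, and 1 of their protocols speaks of T-ALL cells. In Runx2ko cells, 4-OHT, Cre activity and the loss of Runx2 came together and cannot be told apart. The promoter that drives the Cre and the age of the mice were not given in the sources used here.

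Granulocytes fill their granules in sequence. Primary granules, loaded with myeloperoxidase and serine proteases, are made in promyelocytes, secondary granules with lactoferrin and cathelicidin follow in myelocytes and metamyelocytes, and gelatinase-rich granules come last. Calprotectin, the pair of calcium-binding proteins S100a8 and S100a9, is stored in the cytosol and is among the most abundant proteins of mature neutrophils. In mice, C/EBP epsilon is needed for secondary granule genes, and PU.1, RUNX factors and GFI1 also act in the granulocyte lineage.

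Promoter windows of 300 bases, with 250 bases before and 50 bases after the annotated start, were found for 9 of the 10 genes in RefSeq on GRCm38.p6. Those of the 4 granule genes Camp, Ngp, Ltf and Lcn2 and of the calprotectin pair are printed 5′ to 3′ on the strand of the gene, because the results turn on these 6 genes. Capitals mark every match, on either strand, to 4 short motifs: TTGCNNAA for C/EBP, GAGGAA for PU.1, TGTGGT for RUNX and AAATCA for GFI1.
Camp promoter, chr9:109849407-109849706, minus strand: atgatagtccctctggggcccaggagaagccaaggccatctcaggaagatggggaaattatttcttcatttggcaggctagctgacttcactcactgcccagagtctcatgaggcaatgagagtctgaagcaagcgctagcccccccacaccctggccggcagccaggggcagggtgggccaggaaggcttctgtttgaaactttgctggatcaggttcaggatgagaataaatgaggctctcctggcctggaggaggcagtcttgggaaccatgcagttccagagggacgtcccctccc
Ngp promoter, chr9:110419558-110419857, plus strand: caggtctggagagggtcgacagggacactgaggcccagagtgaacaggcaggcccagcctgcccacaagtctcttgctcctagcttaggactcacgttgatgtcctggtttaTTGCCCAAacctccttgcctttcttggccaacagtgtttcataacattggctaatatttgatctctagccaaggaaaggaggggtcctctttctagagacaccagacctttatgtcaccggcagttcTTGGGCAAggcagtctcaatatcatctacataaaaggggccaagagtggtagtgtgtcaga
Ltf promoter, chr9:111019042-111019341, plus strand: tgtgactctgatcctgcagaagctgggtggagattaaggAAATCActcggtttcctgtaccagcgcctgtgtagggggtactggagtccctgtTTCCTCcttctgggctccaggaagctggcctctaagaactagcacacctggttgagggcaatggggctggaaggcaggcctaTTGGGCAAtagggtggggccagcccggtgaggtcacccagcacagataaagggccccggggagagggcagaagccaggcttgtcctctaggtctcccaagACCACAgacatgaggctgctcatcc
Lcn2 promoter, chr2:32387690-32387989, minus strand: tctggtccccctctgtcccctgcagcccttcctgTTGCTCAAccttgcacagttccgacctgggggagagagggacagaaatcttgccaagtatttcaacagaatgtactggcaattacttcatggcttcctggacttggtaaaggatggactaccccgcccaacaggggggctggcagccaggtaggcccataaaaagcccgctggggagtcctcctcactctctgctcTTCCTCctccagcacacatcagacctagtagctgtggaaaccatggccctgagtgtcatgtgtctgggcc
S100a8 promoter, chr3:90668821-90669120, plus strand: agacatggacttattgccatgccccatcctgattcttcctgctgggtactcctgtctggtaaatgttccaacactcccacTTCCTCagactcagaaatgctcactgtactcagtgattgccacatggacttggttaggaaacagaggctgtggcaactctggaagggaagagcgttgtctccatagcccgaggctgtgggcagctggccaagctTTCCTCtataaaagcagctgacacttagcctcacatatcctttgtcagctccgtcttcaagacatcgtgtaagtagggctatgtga
S100a9 promoter, chr3:90695672-90695971, minus strand: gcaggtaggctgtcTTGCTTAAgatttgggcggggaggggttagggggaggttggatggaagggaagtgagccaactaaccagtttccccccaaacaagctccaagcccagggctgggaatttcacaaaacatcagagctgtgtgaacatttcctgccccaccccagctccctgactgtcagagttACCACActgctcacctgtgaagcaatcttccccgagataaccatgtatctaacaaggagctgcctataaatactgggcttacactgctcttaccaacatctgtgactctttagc

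No match overlapped another. The C/EBP letters were in 5 of the 9 windows (Lcn2, S100a9, Mmp8, Ngp and Ltf), against 10.8% of all 32851 RefSeq windows of this length. PU.1 letters were in 5 windows, against 28.3% of all windows, GFI1 letters in 3 (Chil3, Mmp8 and Ltf), against 14%, and RUNX letters in 2 (S100a9 and Ltf), against 16.8%. Ltf, which encodes the iron-binding protein lactoferrin, held a match to each of the 4 motifs, and its RUNX match lay in the transcribed bases. Ngp held the C/EBP letters at 2 places, 138 and 11 bases before the start. The Camp window held none of the 4. A match is a description of letters and says nothing about binding.

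The granule genes Camp, Ngp and Ltf lie on chromosome 9, with gaps of 570 kb and 596 kb between neighbours (GRCm38, GENCODE M21). Camp occupies positions 109847379 to 109849617 on the minus strand, Ngp 110419747 to 110423012 on the plus strand and Ltf 111019271 to 111042767 on the plus strand. Between Camp and Ltf lie 51 annotated genes apart from Ngp, of which 15 were tested. Mmp8 (7558456 to 7568485, plus strand) is far away on the same chromosome. S100a8 (chromosome 3, 90668978 to 90670035, plus strand) and S100a9 (90692632 to 90695721, minus strand) are 22.6 kb apart with no annotated gene between them. Chil3 is also on chromosome 3 (106147554 to 106167564, minus strand), Lcn2 (32384633 to 32388252, minus strand) and Mmp9 (164940780 to 164955850, plus strand) are on chromosome 2, and Cd177 is on chromosome 7 (24743983 to 24760311, minus strand).

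Levels are given as CPM (3′ tag counts per 1000000 counts of the library), on library sizes scaled by the trimmed mean of M-values. QuantSeq primes near the polyadenylation site and gives about 1 tag per transcript read, so that CPM of different genes can be set side by side without a correction for length. Libraries held 3118594 to 5348177 counts. Before the results, 1 library has to be set apart. Runx2ko replicate 1 correlated with the other 5 transformed libraries at r = 0.811 to 0.832 (across genes), against 0.941 to 0.964 among those 5. Its summed mast cell and basophil markers reached 3896.4 CPM, against 43.8 and 474.6 CPM in the other 2 Runx2ko libraries, and its erythroid and megakaryocyte markers reached 1549.4 CPM, against 9.41 to 96.3 CPM in the other 8 libraries. Its monocyte and macrophage markers summed to 514.0 CPM, the lowest of the 9 libraries. Runx2 itself had 21.0, 120.1 and 134.7 CPM in Runx2ko, 159.4, 178.8 and 131.0 CPM in Runx2wt, and 53.3, 46.7 and 58.8 CPM in BM progenitors. A tag near the 3′ end does not check whether the floxed part was deleted. Of the markers of the labelled progenitor state, Kit was counted in all 9 libraries, at 45.1 to 109.5 CPM in Runx2ko, 40.6 to 45.1 CPM in Runx2wt and 68.6 to 74.7 CPM in BM progenitors. Of the 10 tested genes of this list, 1 fell and 3 rose in Runx2ko against BM progenitors, and 2 fell and 3 rose in Runx2wt. The shares of all genes tested were 7.14% falling and 10% rising in Runx2ko, and 5.23% falling and 8.28% rising in Runx2wt. Cd34, a surface marker of progenitors, had 1.9 to 34.6 CPM in Runx2ko, 1.94 to 14.7 CPM in Runx2wt and 76.9 to 83.1 CPM in BM progenitors, and Hlf, a stem cell transcription factor, at most 1.08 CPM in Runx2ko, 0.554 CPM in Runx2wt and 15.3 to 26.2 CPM in BM progenitors. Hlf passed in both (log2 fold change -5.55 in Runx2ko, edgeR adjusted p = 0.00538, and -6.32 in Runx2wt, edgeR adjusted p = 0.00428), and Cd34 in Runx2wt (-3.51, edgeR adjusted p = 0.0402), a call lost without Runx2wt replicate 2 or 3 or any 1 BM progenitor library. Hoxa9, a target gene of KMT2A fusions, had 168.8 to 357.8 CPM in Runx2ko, 434.8 to 516.6 CPM in Runx2wt and 29.4 to 47.8 CPM in BM progenitors.

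Together the 10 genes took 0.0413%, 0.47% and 0.808% of all counts in Runx2ko replicates 1, 2 and 3. In Runx2wt they took 0.0345%, 0.259% and 0.0856%, and in BM progenitors 1.13%, 0.962% and 0.844%. The 3 BM progenitor libraries thus lay above all 6 transformed libraries, and Runx2ko replicate 3 came closest to them. Calprotectin made up most of this share in BM progenitors, at 0.901%, 0.779% and 0.679%. In bulk RNA such as this, fewer cells of a kind and less RNA per cell cannot be told apart.

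**Figure D1:**
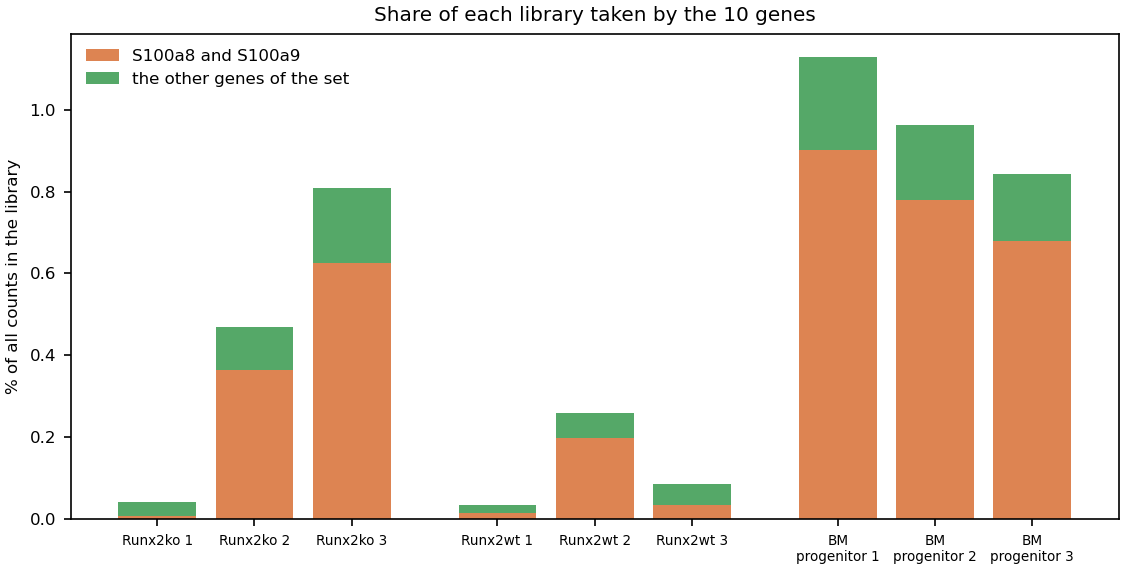
Share of all counts in each library taken by the 10 genes (y axis, percent; bars start at 0), split into the calprotectin pair and the other 8 genes, for the 3 libraries of each group. The BM progenitor bars reach 1.13%, 0.962% and 0.844%, while the transformed libraries range between 0.0345% and 0.808%.

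The order of the genes by level was clear in BM progenitors. S100a8 led with 4597.1 ± 795.7 CPM, followed by S100a9 with 2974.9 ± 376.0 CPM (SD, n = 3 each), and the ranges of these 2 did not overlap. Ngp (712.5 ± 203.5 CPM), Chil3 (473.8 ± 117.6 CPM) and Camp (395.8 ± 51.1 CPM) came next (SD, n = 3), with overlapping ranges between neighbours. Mmp8 and Lcn2 lay near 100 CPM, Ltf at 37.8 ± 3.84 CPM, and Mmp9 and Cd177 closed the order with overlapping ranges. S100a8 was the third, ninth and ninth most counted gene of the 3 BM progenitor libraries. In Runx2ko it ranked 4619, 31 and 8, and in Runx2wt 1653, 83 and 629. Lcn2, not S100a8, was the most counted of the 10 genes in Runx2ko replicate 1, with 66.7% of their counts, and in Runx2wt replicate 3, with 40.6%.

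The spread between replicates differed by group. The ratio of the highest to the lowest library had a median over the genes of 20.9 in Runx2ko (range 1.19 to 131.0), 22.2 in Runx2wt (range 1.44 to 83.2 over the 9 genes with no library at 0), and 1.45 in BM progenitors (range 1.17 to 1.75). Runx2ko replicate 1 was the lowest of its group for 9 of the 10 genes, the exception being Ltf. Runx2wt replicate 2 was the highest of its group for 8.

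**Figure D2:**
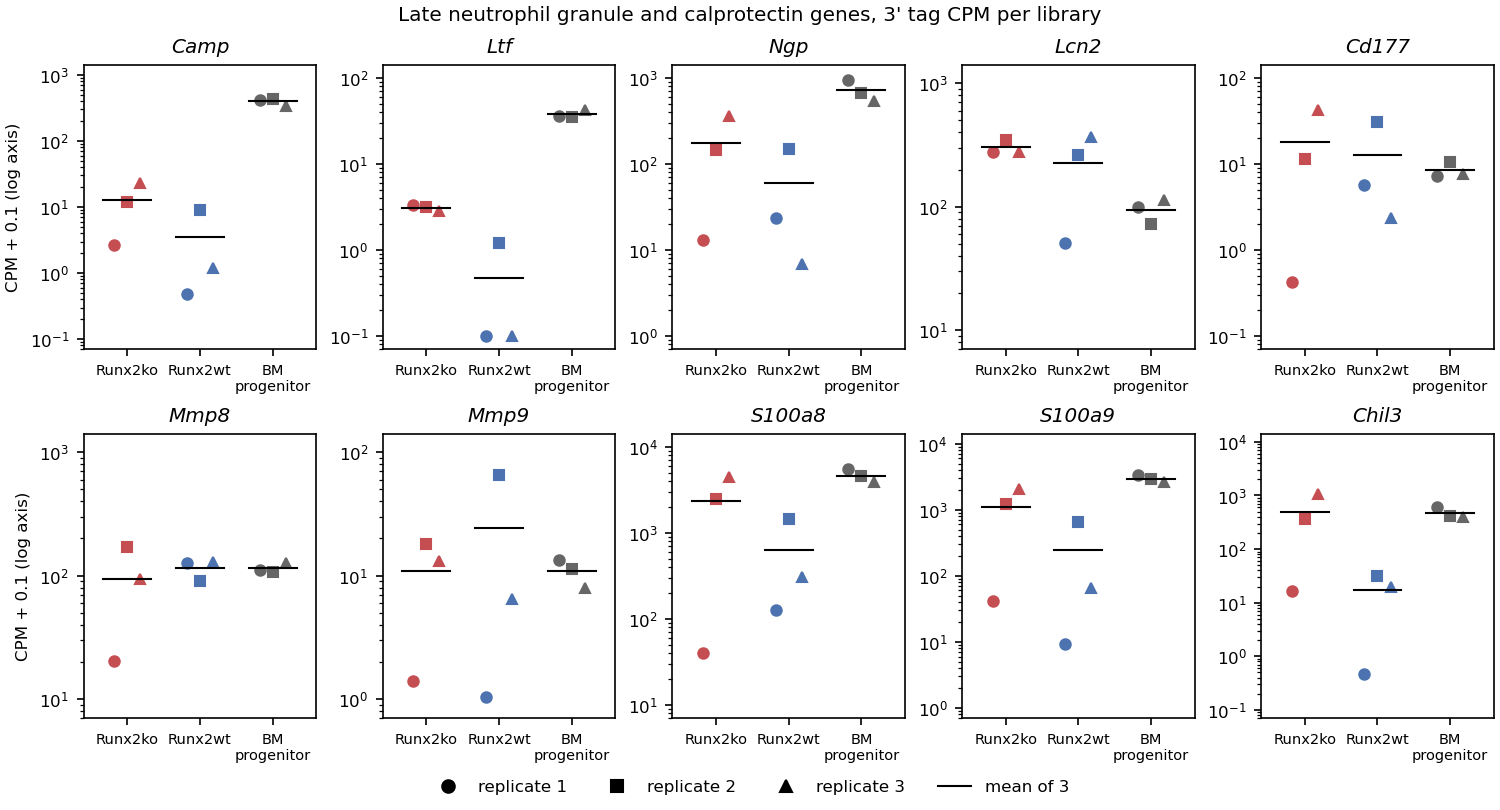
Level of each of the 10 genes in every library (y axis, CPM + 0.1 on a log axis), with the groups side by side, replicate numbers as symbols and a line at the mean of 3. Camp and Ltf stand far apart between BM progenitors and transformed libraries, all but 1 of the transformed libraries lie above BM progenitors for Lcn2, and most other genes are scattered over more than a factor of 10 within Runx2ko and Runx2wt.

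Camp encodes cathelicidin, the precursor of an antimicrobial peptide of secondary granules. It had 2.59, 11.8 and 23.3 CPM in Runx2ko, 0.376, 8.87 and 1.11 CPM in Runx2wt, and 412.2, 436.7 and 338.5 CPM in BM progenitors. All 6 transformed libraries lay far below every BM progenitor library. In edgeR's quasi-likelihood test with Benjamini-Hochberg adjustment over all genes, Camp was lower in Runx2wt than in BM progenitors by a log2 fold change of -6.91 (SE 0.99, 95% interval -9.13 to -4.7, adjusted p = 0.00455). In Runx2ko against BM progenitors it was -4.96 (SE 0.87, 95% interval -6.92 to -3.0, edgeR adjusted p = 0.00866), and -4.52 without Runx2ko replicate 1.

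Ltf, lactoferrin, was counted at 3.23, 3.04 and 2.71 CPM in Runx2ko (10, 16 and 10 tags), at 0, 1.11 and 0 CPM in Runx2wt (0, 4 and 0 tags), and at 35.9, 35.3 and 42.3 CPM in BM progenitors (197, 131 and 199 tags). Zero tags at the depth of Runx2wt replicates 1 and 3 allow up to 0.564 and 0.835 CPM (3 tags, counting error only). The 3 groups did not overlap, with BM progenitors highest and Runx2wt lowest. Ltf fell in Runx2wt against BM progenitors (log2 fold change -6.72, SE 0.75, edgeR adjusted p = 0.00221) and in Runx2ko against BM progenitors (-3.65, SE 0.58, edgeR adjusted p = 0.00664). These 2 contrasts share their BM progenitor libraries. It was the steadiest of the 10 genes across Runx2ko, where the highest library was 1.19 times the lowest.

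Ngp, neutrophilic granule protein, a relative of the cathelicidins, had 12.9, 145.0 and 362.9 CPM in Runx2ko. Runx2wt had 23.3, 148.3 and 6.68 CPM, and BM progenitors 933.9, 669.8 and 533.7 CPM. Every transformed library was below every BM progenitor library, but the transformed libraries ranged over more than a factor of 10. The log2 fold change against BM progenitors was -2.04 in Runx2ko (SE 1.13, edgeR adjusted p = 0.239) and -3.59 in Runx2wt (SE 1.21, edgeR adjusted p = 0.0755). In Runx2wt against BM progenitors, edgeR gave an adjusted p of 0.00776 when Runx2ko replicate 1 was left out of the shared fit.

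The balance of Ngp and Camp tags also shifted. Ngp tags per Camp tag numbered 5.0, 12.3 and 15.6 in Runx2ko, 62.0, 16.7 and 6.0 in Runx2wt, and 2.27, 1.53 and 1.58 in BM progenitors. All transformed libraries had more Ngp per Camp than any BM progenitor library. In Runx2wt replicates 1 and 3 and in Runx2ko replicate 1 this ratio rests on few Camp tags (2, 4 and 8). Of the 15 tested genes between Camp and Ltf, 3 were lower and 0 higher in Runx2wt than in BM progenitors. Their median log2 fold change was -0.03, and 5.23% of all genes tested were lower and 8.28% higher. In Runx2ko against BM progenitors 1 of the 15 was lower and 1 higher, beside 7.14% and 10% of all genes tested.

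Lcn2, lipocalin 2, binds bacterial siderophores and so withholds iron, and it went the other way. It had 277.5, 349.8 and 280.0 CPM in Runx2ko, 50.4, 263.6 and 364.5 CPM in Runx2wt, and 99.3, 72 and 112.8 CPM in BM progenitors. All Runx2ko libraries, replicate 1 included, were above all BM progenitor libraries, while Runx2wt replicate 1 lay below them. In Runx2ko against BM progenitors the log2 fold change was 1.67 (SE 0.55, 95% interval 0.44 to 2.91), with an edgeR adjusted p of 0.0644. It was 1.73 without Runx2ko replicate 1, with an edgeR adjusted p of 0.0344. In Runx2wt against BM progenitors the log2 fold change was 1.25 (SE 0.55, edgeR adjusted p = 0.148), and 1.71 without Runx2wt replicate 1 (edgeR adjusted p = 0.011).

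Cd177, a surface protein of neutrophils that is also held in secondary granules, had 0.323, 11.4 and 42.3 CPM in Runx2ko, 5.64, 30.2 and 2.23 CPM in Runx2wt, and 7.12, 10.5 and 7.43 CPM in BM progenitors. The groups overlapped in every comparison. Its log2 fold change against BM progenitors was 1.11 in Runx2ko (SE 1.15, edgeR adjusted p = 0.537) and 0.6 in Runx2wt (SE 1.16, edgeR adjusted p = 0.755).

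Mmp8, the neutrophil collagenase, is also stored in secondary granules. It had 20.1, 169.6 and 93.2 CPM in Runx2ko, 125.5, 89.5 and 129.1 CPM in Runx2wt, and 110.2, 107.1 and 125.5 CPM in BM progenitors. Apart from Runx2ko replicate 1, all libraries were between 89.5 and 169.6 CPM. In Runx2wt against BM progenitors its log2 fold change was 0.01 with a 95% interval of -1.23 to 1.24, which takes in changes of more than a factor of 2 either way (edgeR adjusted p = 0.996).

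Mmp9, or gelatinase B, marks the last granules to form. It had 1.29, 17.9 and 13 CPM in Runx2ko, 0.941, 65.1 and 6.4 CPM in Runx2wt, and 13.3, 11.1 and 7.86 CPM in BM progenitors. Runx2wt replicate 2 stood above the other 8 libraries and the groups overlapped. Against BM progenitors the log2 fold change was 0.02 in Runx2ko (SE 1.18, edgeR adjusted p = 0.994) and 1.15 in Runx2wt (SE 1.18, edgeR adjusted p = 0.531).

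The calprotectin genes varied most in absolute level. S100a8 had 39.8, 2461.2 and 4451.6 CPM in Runx2ko, 127.0, 1442.8 and 303.2 CPM in Runx2wt, and 5430.3, 4516.2 and 3845.0 CPM in BM progenitors. All Runx2wt libraries were below all BM progenitor libraries, while Runx2ko replicate 3 reached into the BM progenitor range. Its log2 fold change against BM progenitors was -0.99 in Runx2ko (SE 1.2, edgeR adjusted p = 0.604) and -2.88 in Runx2wt (SE 1.28, edgeR adjusted p = 0.155).

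S100a9 had 42.0, 1217.7 and 2033.0 CPM in Runx2ko. In Runx2wt it had 9.22, 655.4 and 64.5 CPM, and in BM progenitors 3358.6, 2958.9 and 2607.2 CPM. Every transformed library was below every BM progenitor library. The log2 fold change against BM progenitors was -1.44 in Runx2ko (SE 1.35, edgeR adjusted p = 0.491) and -3.62 in Runx2wt (SE 1.47, edgeR adjusted p = 0.126). Without Runx2ko replicate 1, Runx2wt against BM progenitors gave edgeR adjusted p-values of 0.0226 for S100a9 and 0.00969 for S100a8.

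The products of this pair form a complex, and its tags came in a nearly fixed ratio in BM progenitors. S100a9 tags per S100a8 tag numbered 1.06, 0.495 and 0.457 in Runx2ko, 0.0726, 0.454 and 0.213 in Runx2wt, and 0.619, 0.655 and 0.678 in BM progenitors. Of the tags of the pair, S100a9 thus made up 38.2% to 40.4% in BM progenitors. Its share was 6.77% (Wilson 95% interval 5.16% to 8.84%) in Runx2wt replicate 1 and 17.5% (15.6% to 19.7%) in Runx2wt replicate 3. In Runx2ko replicate 1 it was 51.4% (45.3% to 57.5%). The libraries with the fewest calprotectin tags therefore lay farthest from the BM progenitor ratios, in both directions; intervals cover counting error only.

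Chil3, a chitinase-like secreted protein also called Ym1 that mouse neutrophil precursors and alternatively activated macrophages make, had 16.5, 365.2 and 1083.6 CPM in Runx2ko, 0.376, 31.3 and 19.5 CPM in Runx2wt, and 609.5, 411.6 and 400.3 CPM in BM progenitors. Runx2wt libraries were all below the BM progenitor libraries, and Runx2ko libraries lay both below and above the BM progenitor range. The log2 fold change against BM progenitors was 0.04 in Runx2ko (SE 1.18, 95% interval -2.59 to 2.68, edgeR adjusted p = 0.985). In Runx2wt it was -4.82 (SE 1.41, 95% interval -7.98 to -1.67, edgeR adjusted p = 0.0505), and -4.85 without Runx2ko replicate 1 (edgeR adjusted p = 0.00136). The close copy Chil4 had at most 1 tag in any library.

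Counted over the set, 2 of the 10 genes (Camp and Ltf) were lower and 0 higher in Runx2wt than in BM progenitors at an adjusted p under 0.05, which is 20% of the set, against 13.5% of all genes tested in either direction and 5.23% in the lower direction. Camp and Ltf passed under all 17 alternatives. As many as 6 of the genes, Camp, Ltf, Ngp, S100a8, S100a9 and Chil3, had every Runx2wt library below every BM progenitor library, against 24.5% of all genes tested. The median log2 fold change of the 10 was -3.23, against 0.01 over all genes tested. The count was 6 without Runx2ko replicate 1, these same 6 genes, when 28% of all genes tested passed and 12.1% passed as lower. DESeq2 on all libraries passed 4 of the 10, against 16% of the genes it tested. Runx2ko replicate 1 is in neither group of this contrast but is part of the shared fit, and leaving it out also changed the number of genes tested, to 11636.

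In Runx2ko against BM progenitors, Camp and Ltf were again the 2 of 10 genes that passed, both lower, against 17.2% of all genes tested in either direction and 7.14% in the lower direction. Camp, Ltf, Ngp and S100a9 had all Runx2ko libraries below all BM progenitor libraries (18.8% of all genes tested), and Lcn2 had all of them above (19.5% of all genes tested). The median log2 fold change was -0.63, against 0.07 over all genes tested, and it was -0.11 without Runx2ko replicate 1. Without that library 3 passed, Camp and Ltf lower and Lcn2 higher, when 28.5% of all genes tested passed. DESeq2 on all libraries passed the same 3, against 19.6% of the genes it tested.

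**Figure D3:**
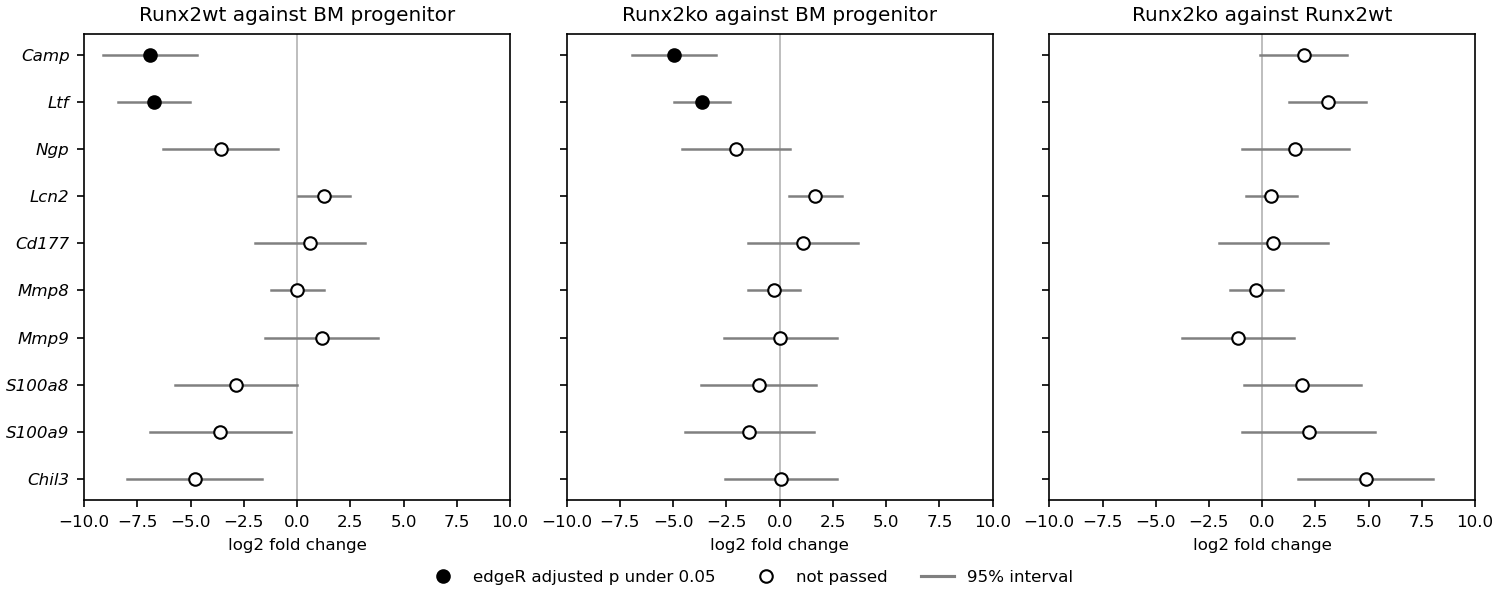
Log2 fold change of each of the 10 genes in the 3 comparisons (x axis), with 95% intervals from the edgeR fit of all 9 libraries. The intervals of Camp and Ltf lie wholly below 0 in both comparisons with BM progenitors, and Mmp8, Mmp9 and Cd177 have intervals that cross 0 throughout.

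Markers of other cells moved along with these comparisons. The 8 eosinophil markers in the table summed to 8.75 to 18.1 CPM in Runx2ko, 2.49 to 4.52 CPM in Runx2wt, where Epx, Ear1, Ear2 and Ccr3 were at 0, and 1376.9 to 1839.4 CPM in BM progenitors. The 10 mast cell and basophil markers summed to 43.8 to 3896.4 CPM in Runx2ko, 71.7 to 308.3 CPM in Runx2wt and 1028.6 to 1173.7 CPM in BM progenitors, with Mrgprb1 at 0 in all libraries and Tpsb2 at 0 in BM progenitors. Single markers of this list went both ways. Against BM progenitors, 4 of the 9 tested fell and 1 rose in Runx2wt, beside 5.23% and 8.28% of all genes tested. In Runx2ko 0 fell and 2 rose, beside 7.14% and 10%. Prss34 (-7.57), Mcpt8 (-6.41), Hdc (-4.45) and Ms4a2 (-3.86) fell in Runx2wt. Cma1 rose in both (7.32 in Runx2wt and 7.93 in Runx2ko), and Tpsb2 in Runx2ko (11.69). Each of these calls was lost in some fits with 1 library left out. The 15 monocyte and macrophage markers, none of them at 0 in a whole group, summed to 514.0 to 5007.7 CPM in Runx2ko, 3070.3 to 3605.2 CPM in Runx2wt and 1809.2 to 2616.7 CPM in BM progenitors. Ly6c2 alone had 199.3 to 3552.3 CPM in Runx2ko, 1202.1 to 2620.4 CPM in Runx2wt and 1049.9 to 1712.3 CPM in BM progenitors. Of the 14 tested, 2 fell and 2 rose in Runx2ko, beside 7.14% and 10% of all genes tested. In Runx2wt 1 fell and 2 rose, beside 5.23% and 8.28%. Ms4a6c fell in both (-2.28 in Runx2ko and -4.34 in Runx2wt), and Adgre1 rose in both (1.13 and 1.63). The 10 dendritic cell markers summed to 149.1 to 210.9 CPM in Runx2ko, 137.7 to 226.3 CPM in Runx2wt, where Clec9a was at 0, and 340.1 to 452.8 CPM in BM progenitors. Of the 8 tested, 4 fell in Runx2ko (50%, against 7.14% of all genes tested) and 5 in Runx2wt (62.5%, against 5.23%). The 10 lymphoid markers in the table summed to 2.44 to 17.7 CPM over all 9 libraries. The part of these other cells in the results for the 10 genes was not tested.

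In the Runx2ko against Runx2wt comparison of transformed cells, none of the 10 genes passed. This comparison joins the intended deletion of Runx2 with hydroxytamoxifen exposure and Cre activity, and it cannot tell them apart. The edgeR test called 0 of 11196 genes (0% of all genes tested), with 886 genes and 2 of the 10, Ltf and Chil3, at an unadjusted p under 0.05. The limma-voom test also called 0 genes, and DESeq2 called 48 (0.362%), of which 1, Ltf, was among the 10 and was higher in Runx2ko (DESeq2 adjusted p = 0.0384). Of the 10, 8 had log2 fold changes above 0 and 2 below, with a median of 1.72, against 0.01 over all genes tested. Only Ltf had all Runx2ko libraries above all Runx2wt libraries, against 4.95% of all genes tested.

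For Ltf the log2 fold change was 3.07 (SE 0.81, 95% interval 1.27 to 4.88, edgeR adjusted p = 0.579), and it rests on 4 tags in Runx2wt. Chil3 had the highest value of the 10, at 4.87 (SE 1.41, 95% interval 1.7 to 8.03, edgeR adjusted p = 0.579). Its Runx2ko replicate 1, at 16.5 CPM, lay within the Runx2wt range of 0.376 to 31.3 CPM, and replicates 2 and 3 lay above it. Without replicate 1 the Chil3 value was 5.46 with an edgeR adjusted p of 0.0741.

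Runx2ko replicates 2 and 3 were also both above all 3 Runx2wt libraries for Camp, S100a8 and S100a9, while replicate 1 was within or below the Runx2wt range for each of these. The share of all genes with replicates 2 and 3 in this order was not counted, so it only describes these libraries. The log2 fold changes were 1.95 for Camp (SE 0.91, edgeR adjusted p = 0.645), 1.89 for S100a8 (SE 1.23, edgeR adjusted p = 0.718) and 2.18 for S100a9 (SE 1.39, edgeR adjusted p = 0.715). Leaving out replicate 1 gave 2.43, 2.47 and 2.74, with edgeR adjusted p-values of 0.35, 0.353 and 0.528 in the same order of genes. The median over the 10 genes was then 2.27, still with 0 of the 10 passing and 0.043% of all genes tested passing.

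The remaining genes differed less. Lcn2 had a log2 fold change of 0.42 with a 95% interval of -0.78 to 1.62, Cd177 of 0.52 (SE 1.14), Mmp8 of -0.28 (SE 0.55) and Mmp9 of -1.13 (SE 1.18). Ngp stood at 1.55 (SE 1.13), and Runx2wt replicate 2, at 148.3 CPM, was above Runx2ko replicate 2, at 145.0 CPM. None of these had an edgeR adjusted p below 0.74, and with 3 libraries a group the intervals do not show that the transformed groups were alike.

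**Figure D4:**
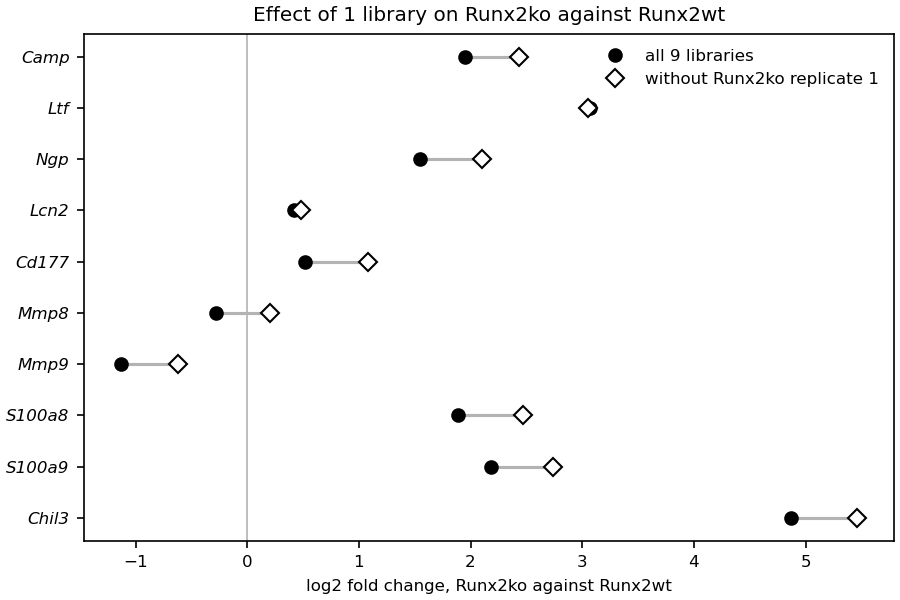
Log2 fold change of each of the 10 genes in Runx2ko against Runx2wt (x axis) from all 9 libraries (filled circles) and without Runx2ko replicate 1 (open diamonds). The value moved up for 9 of the 10 genes, for Chil3 to 5.46, and that of Ltf stayed near 3.07.

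Other genes of the neutrophil programme were read from the same fit, and their counts stand beside the shares of all genes tested. Over all genes, 7.14% fell and 10% rose in Runx2ko against BM progenitors, and 5.23% fell and 8.28% rose in Runx2wt. Without Runx2ko replicate 1, 12.6% fell and 15.9% rose in Runx2ko, and 12.1% fell and 15.9% rose in Runx2wt. With any 1 library left out, 178 to 1465 genes fell and 225 to 1846 rose in Runx2ko, against 799 and 1125 with all libraries. In Runx2wt 83 to 1407 fell and 126 to 1849 rose, against 586 and 927. Calls were thus lost over the whole table in some of these fits, not only for the genes named here. Of 12 primary granule genes, 4 fell and 1 rose in Runx2ko against BM progenitors, and 4 fell and 0 rose in Runx2wt, so that 33.3% fell in each. Without Runx2ko replicate 1 these counts were 4 and 2 in Runx2ko, and 6 and 2 in Runx2wt. Mpo, myeloperoxidase, averaged 56.2 ± 30.9 CPM in Runx2ko, 9.35 ± 3.97 CPM in Runx2wt and 2721.0 ± 482.2 CPM in BM progenitors (SD, n = 3 each), with log2 fold changes of -5.6 (edgeR adjusted p = 0.00138) in Runx2ko and -8.16 (edgeR adjusted p = 0.000345) in Runx2wt. Nkg7, a granule membrane protein of cytotoxic and myeloid cells, fell in both groups, with log2 fold changes of -2.57 in Runx2ko and -4.47 in Runx2wt. Ctsc, cathepsin C, which activates the granule serine proteases, also fell in both (-1.74 in Runx2ko and -1.77 in Runx2wt). The serine protease genes of the list did not pass in either group. Their log2 fold changes in Runx2ko and Runx2wt were -0.65 and -0.99 for Elane, -1.05 and -0.92 for Prtn3, and -0.16 and -0.49 for Ctsg. Those of Prss57 were -0.01 and -1.98 (edgeR adjusted p = 0.0778 in Runx2wt). With any 1 library left out, the calls of Mpo and Ctsc held in both comparisons, while Nkg7 in Runx2ko lost its call without any 1 BM progenitor library. Cd63, a membrane protein of primary granules, rose in Runx2ko against BM progenitors (log2 fold change 1.51, edgeR adjusted p = 0.039). The 3 Runx2ko libraries had 7072.4, 2353.5 and 2601.0 CPM of it, and the 3 BM progenitor libraries 1517.5, 1460.2 and 1232.2 CPM. Its value was 0.82 without Runx2ko replicate 1, its highest library (edgeR adjusted p = 0.0331), and the call was lost without Runx2wt replicate 1 or any 1 BM progenitor library.

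Of 10 other secondary granule genes tested out of 14, 1 fell and 0 rose in Runx2ko, and 1 fell and 2 rose in Runx2wt, each against BM progenitors. Without Runx2ko replicate 1 these counts were 2 and 4 in Runx2ko, and 3 and 3 in Runx2wt. With all libraries, 10% fell in each group and 20% rose in Runx2wt. The gene that fell in the fit of all libraries was Fcnb, a ficolin of granulocyte precursors, with 0, 0 and 0.271 CPM in Runx2ko, no tags in Runx2wt, and 52.7, 47.7 and 28.2 CPM in BM progenitors. Those that rose in Runx2wt were Cyba, a subunit of the phagocyte oxidase (1.02, edgeR adjusted p = 0.0373), and Itgb2, the integrin beta chain of the granule membrane (1.36, edgeR adjusted p = 0.0482). Both lost their call when any 1 Runx2wt or BM progenitor library was left out, and Itgb2 also without Runx2ko replicate 2. Both also lost it with the replicate block and on the authors' normalized values, and Itgb2 with RLE factors, library totals and limma-voom. Cyba passed under 9 of the 17 alternatives and Itgb2 under 5. Lyz2, lysozyme, the most counted of this list, averaged 3530.9 ± 3335.5 CPM in Runx2ko and 6547.8 ± 3690.2 CPM in Runx2wt (SD, n = 3 each), which did not pass the edgeR test (adjusted p = 0.82).

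Among 22 tested genes of the mature neutrophil surface and cytosol, 1 fell and 4 rose in Runx2ko against BM progenitors, and 2 fell and 1 rose in Runx2wt. Without Runx2ko replicate 1 these counts were 4 and 10 in Runx2ko, and 5 and 6 in Runx2wt, of 23 tested. With all libraries, 4.55% fell and 18.2% rose in Runx2ko, and 9.09% fell and 4.55% rose in Runx2wt. Ly6g, the surface marker by which mouse neutrophils are sorted, had 171.4, 35.2 and 33.3 CPM in Runx2ko, 5.83, 42.7 and 12.0 CPM in Runx2wt, and 1.28, 0.54 and 2.34 CPM in BM progenitors. It rose in both transformed groups, opposite in direction to Camp and Ltf, by 5.78 in Runx2ko (edgeR adjusted p = 0.00945) and 3.78 in Runx2wt (edgeR adjusted p = 0.0392) on the log2 scale. Its highest library was Runx2ko replicate 1, where 9 of the 10 granule and calprotectin genes were at their group's lowest, and without it the Runx2ko value was 4.56 (edgeR adjusted p = 0.00161). The Runx2ko call was lost without BM progenitor replicate 1 or 2, and the Runx2wt call without Runx2wt replicate 2 or 3 or any 1 BM progenitor library. Of the other genes of this list that passed, BC100530 (4.84), Il1r2 (3.44) and Padi4 (1.68) rose in Runx2ko, and Il1b fell (-2.17). In Runx2wt, Hdc (-4.45) and Ifitm6 (-1.81) fell. Hdc is also on the mast cell and basophil list, so its call is counted in both lists. Padi4 kept its call under all 17 alternatives, and the others each lost theirs in some fits with 1 library left out.

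Of 20 granulocyte transcription factor genes, 1 fell and 2 rose in Runx2ko, and 2 fell and 1 rose in Runx2wt, each against BM progenitors (4 and 4 in Runx2ko, and 6 and 3 in Runx2wt, without Runx2ko replicate 1). With all libraries that is 5% and 10% in Runx2ko, and 10% and 5% in Runx2wt, or 1 or 2 genes each, beside the shares of all genes above. Gfi1, a repressor needed for neutrophil formation, rose in both (1.8, edgeR adjusted p = 0.0172 in Runx2ko, and 1.87, edgeR adjusted p = 0.0181 in Runx2wt). Cebpg rose in Runx2ko (0.62, edgeR adjusted p = 0.0481), a call kept under 2 of the 17 alternatives. Egr2, a factor of the monocyte branch, fell in both (-3.4 in Runx2ko and -2.43 in Runx2wt), and Runx1 fell in Runx2wt (-1.06, edgeR adjusted p = 0.0233). Gfi1 lost its call in both comparisons without any 1 BM progenitor library, and in Runx2wt also without Runx2wt replicate 1 or 2. Runx1 lost its call without Runx2wt replicate 1 or 3 or any 1 BM progenitor library. Egr2 kept its call in Runx2ko and lost it in Runx2wt without Runx2wt replicate 1 or 2 or BM progenitor replicate 2 or 3. Cebpe, which encodes C/EBP epsilon, had 1.29, 8.94 and 13.8 CPM in Runx2ko, 33.3, 9.15 and 2.23 CPM in Runx2wt, and 44.2, 28.9 and 27.6 CPM in BM progenitors, and did not pass in either comparison (edgeR adjusted p = 0.137 in Runx2ko and 0.376 in Runx2wt). It is named here for its role, after its values were seen. Of 8 genes of G-CSF and IL-6 signalling, Il6st, the shared signalling chain of the IL-6 receptor family, was the 1 that passed with all libraries, with -4.12 in Runx2ko (edgeR adjusted p = 0.000445) and -3.45 in Runx2wt (edgeR adjusted p = 0.000529), and it passed under all 17 alternatives in both. In Runx2ko against Runx2wt, edgeR called 0 genes of all these lists.

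**Figure D5:**
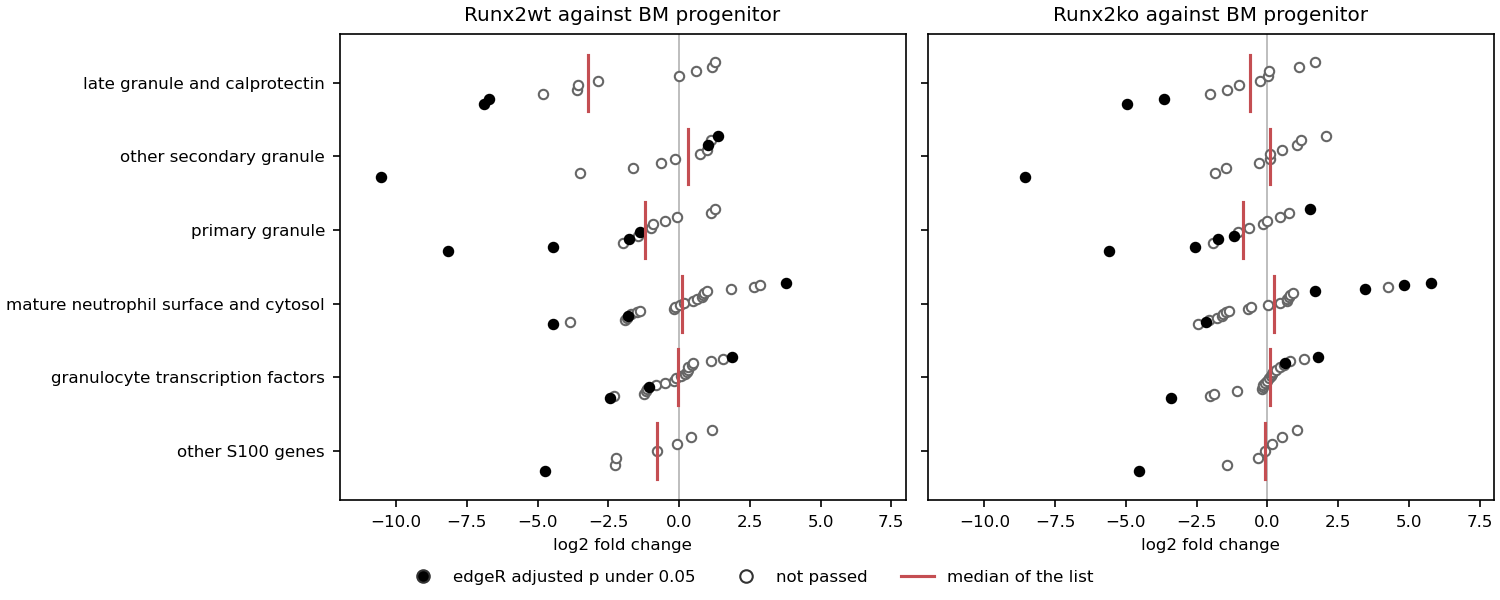
Log2 fold change of every tested gene of the neutrophil lists (1 point a gene), for Runx2wt and Runx2ko against BM progenitors, with the 10 genes in the top row and a line at each median; filled points passed an edgeR adjusted p of 0.05. The primary granule genes that passed lie mainly below 0, and the leftmost point is Fcnb, whose fitted value depends on the prior count because Runx2wt had no tags.

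The genes most like Camp over the 9 libraries, by Pearson's r of log2(CPM + 1) among 8353 genes with a mean of at least 10 CPM, were Dusp1 (0.978), Bcl11a (0.976), Irf5 (0.959), Dmkn (0.953) and Ear2 (0.949). For S100a8 they were Mospd3 (0.965), Fpr2 (0.954), Slc2a6 (0.932), Ankrd44 (0.922) and Traf3 (0.92). The 9 libraries fall into separate groups, so these values describe a shared order of libraries and carry no test.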

How the data were processed

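Expression was measured by QuantSeq 3′ mRNA-seq (reverse kit) in 9 mouse libraries of 3 groups, from 500 ng of total RNA each. The submitters' processing notes name FastQC, STAR, DESeq2 and GRCm38, and no counting program was named there or in the labels. The deposited table holds raw counts per Ensembl gene, and a second table of the authors holds other values, which are those counts divided by 1 constant per library. Symbols came from GENCODE M21 (21042 of 21159 identifiers matched).

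Counts were tested with edgeR 4.0.16 (R 4.3.3): filterByExpr, TMM factors, quasi-likelihood F-tests on 1 fit of all 9 libraries, Benjamini-Hochberg adjustment over 11196 genes, threshold 0.05. Standard errors are the log2 fold change divided by the square root of F. The scripts were tested on simulated data with 200 changed genes. Alternatives were DESeq2 1.42.0, limma-voom (limma 3.58.1), RLE factors, library totals, no filter, fewer libraries, a replicate block and limma on log2(authors' value + 1). No 2 libraries of the same group agreed within sampling noise (at least 4.49 chi-square per gene over the 9 within-group pairs), so none was counted as 1 sample.

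All 10 genes are named in every comparison. From 16 other lists, up to 3 passing genes per direction with the largest change are named, or the most counted gene where none passed, as far as they bear on the granule genes. Some genes are named outside this rule, among them Kit, Runx2, Cebpe, Padi4 and the serine proteases of the primary granule list. Members and lists were chosen with earlier results of these data known. P-values measure the spread between these libraries. Promoters are from RefSeq on GRCm38.p6; Mmp9 is named only.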

Additional observations from a re-analysis of the deposited data

How the results depend on the processing

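The number of the 10 genes passing in Runx2wt against BM progenitors was 2 in edgeR with all libraries, 4 with no filter on low counts, 6 with only the compared libraries, 4 with DESeq2 and 4 with limma-voom. It ranged between 2 and 6 when 1 library was left out, with 6 reached without Runx2ko replicate 1. Over all genes tested, 586 were lower and 927 higher with all libraries. Under the alternatives these were 83 to 1743 and 126 to 1936, and with 1 library left out 83 to 1407 and 126 to 1849. In Runx2ko against BM progenitors 2 of the 10 genes passed, and 2 to 3 under the alternatives. There 799 of all genes tested were lower and 1125 higher, and 178 to 1465 and 225 to 1846 under the alternatives. In Runx2ko against Runx2wt 0 of the 10 genes passed, and 1 with DESeq2. The cause was not tested. Ltf could not be tested in Runx2ko against Runx2wt with only those libraries, where it fell under the filter.

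The replicate numbers share only a number: deviations of same-numbered libraries correlated at -0.071 to 0.074 over 9 pairs, and a library correlated best with its own number in 5 of 18 cases. With the replicate block, 2, 2 and 0 of the 10 genes passed in Runx2wt against BM progenitors, Runx2ko against BM progenitors and Runx2ko against Runx2wt. Over all genes the block gave 922 calls, against 1513, in Runx2wt against BM progenitors, and 1120, against 1924, in Runx2ko against BM progenitors.

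Of 509 log2 fold changes of single genes under the alternatives, 444 kept their direction and side of the threshold, 23 newly passed and 42 changed sign, and all that changed sign were of genes that did not pass. In Runx2wt against BM progenitors, Mmp8 became -0.0068 with RLE factors, -0.093 with library totals, -0.0084 with DESeq2, -0.0077 with limma-voom and -0.023 on the authors' normalized values. There Mmp9 became -0.31 with the replicate block, -0.82 with limma-voom and -0.44 on the authors' values, and Cd177 -0.17 with limma-voom and -0.17 on the authors' values. In Runx2ko against BM progenitors, Mmp9 became -0.062 with library totals, -0.76 with the replicate block, -0.013 with DESeq2, -0.35 with limma-voom and -0.60 on the authors' values. There Chil3 became -0.053 with library totals, -1.44 with the replicate block, -1.28 with limma-voom and -1.32 on the authors' values, and Cd177 -0.11 and -0.39 with limma-voom and on the authors' values. In Runx2ko against Runx2wt, Mmp9 became 0.47 with limma-voom and Cd177 -0.22 on the authors' values. Leaving out 1 library gave, in Runx2wt against BM progenitors, -0.088 to 0.15 for Mmp8, -1.59 to 1.71 for Mmp9 and -1.05 to 1.09 for Cd177. In Runx2ko against BM progenitors it gave -0.55 to 0.52 for Mmp9, -1.31 to 0.61 for Chil3, -0.43 to 1.67 for Cd177 and -0.99 to 0.20 for Mmp8. In Runx2ko against Runx2wt it gave -1.70 to 1.61 for Mmp9, -1.03 to 2.16 for Cd177, -0.049 to 0.95 for Lcn2 and -0.97 to 0.20 for Mmp8. The cause was not tested. With 1 library left out, the counts of falling and rising genes were 2 to 4 and 0 to 2 in Runx2ko, and 3 to 6 and 0 to 2 in Runx2wt, for the primary granule list. They were 0 to 4 and 1 to 10 in Runx2ko, and 0 to 5 and 0 to 6 in Runx2wt, for the mature neutrophil list. The counts over all genes tested also moved widely in these fits, as given above.

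Depth limits Ltf, with 4 tags in all of Runx2wt, and the ratios that rest on few Camp tags in Runx2wt replicates 1 and 3 and Runx2ko replicate 1. With 3 libraries a group and a large spread in the transformed groups, the intervals of most of the 10 genes cover changes of several fold.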

Other observations

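The receptors, inhibitors and relatives of the 10 genes were counted in the same fit. Of 9 tested receptors and partners, 1 rose and 0 fell in Runx2ko against BM progenitors, where 10% of all genes tested rose and 7.14% fell. It was Pecam1, the adhesion molecule that human CD177 binds, at 526.5 ± 313.5 CPM in Runx2ko and 132.1 ± 22.1 CPM in BM progenitors (SD, n = 3 each; log2 fold change 1.99, edgeR adjusted p = 0.0105). Runx2ko replicate 1 had 882.7 CPM, against 292.5 and 404.4 CPM in the other Runx2ko libraries, and without it the value was 1.4 (edgeR adjusted p = 0.000865). The call was lost without BM progenitor replicate 3 (edgeR adjusted p = 0.0579). In Runx2wt against BM progenitors 0 of the 9 passed in edgeR, where 5.23% of all genes tested fell and 8.28% rose. Under the alternatives 0 to 1 of the 9 fell and 0 to 3 rose, beside 83 to 1743 and 126 to 1936 of all genes tested. Of 7 tested other S100 genes, S100a4, a calcium-binding protein of motile cells, fell in both transformed groups, with log2 fold changes of -4.54 in Runx2ko (edgeR adjusted p = 0.0134) and -4.73 in Runx2wt (edgeR adjusted p = 0.0138). It had 49.8, 14.5 and 3.79 CPM in Runx2ko, 14.3, 4.71 and 39.8 CPM in Runx2wt, and 494.5, 553.3 and 511.2 CPM in BM progenitors. Without Runx2ko replicate 1 the Runx2ko value was -5.77 (edgeR adjusted p = 0.000364). The call was lost in Runx2ko without BM progenitor replicate 3 (edgeR adjusted p = 0.0501), and in Runx2wt without Runx2wt replicate 2 or BM progenitor replicate 2 or 3 (at most 0.0573).

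Of 5 tested other matrix metalloproteinases and inhibitors, Mmp12, macrophage elastase, averaged 56.7 ± 26.5 CPM in Runx2ko, 177.9 ± 68.6 CPM in Runx2wt and 13 ± 7.77 CPM in BM progenitors (SD, n = 3 each). It rose in Runx2ko (2.14, edgeR adjusted p = 0.0357) and in Runx2wt (3.79, edgeR adjusted p = 0.00747). The Runx2wt call held with any 1 library left out, and the Runx2ko call in 2 of 9 such fits, those without Runx2ko replicate 1 or Runx2wt replicate 2. Timp2, an inhibitor of these proteases, averaged 148.6 ± 115.0 CPM in Runx2ko, 203.8 ± 31.3 CPM in Runx2wt and 10.4 ± 0.471 CPM in BM progenitors (SD, n = 3 each), and rose in both (3.84 in Runx2ko and 4.3 in Runx2wt), with both calls lost without BM progenitor replicate 3 (edgeR adjusted p = 0.0513 in Runx2ko and 0.0522 in Runx2wt). Mmp14, a membrane-bound protease, fell in Runx2ko (-3.62, edgeR adjusted p = 0.0316), a call lost without Runx2ko replicate 3 or any 1 BM progenitor library. Of 2 tested chitinase-like genes, Chid1 rose in both transformed groups (0.9 in Runx2ko and 0.99 in Runx2wt). Both calls were lost without any 1 BM progenitor library, and that in Runx2wt also without Runx2wt replicate 2.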
